A study of Mus musculus with 5 samples.

Results

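Transcripts of 10 genes for subunits of heterotrimeric G proteins were examined in blood stem and progenitor cells of Gabbr1 null and wild-type (WT) mice. The set was the Gi/o class alpha genes Gnai1, Gnai2, Gnai3, Gnao1 and Gnaz, the beta genes Gnb1, Gnb2 and Gnb4, and the gamma genes Gng2 and Gng5. These subunits carry the signal of receptors that couple to Gi or Go. They were taken by name, and all 10 were found among the 39056 genes of the count table. The cells were Lin-Sca-1+Kit+ (LSK) marrow cells, a fraction with stem cells and early progenitors, sorted at about 12000 cells per library from mice at postnatal day 15. The Gabbr1 null group had 3 libraries from mutants of C57BL/6 background labelled null for Gabbr1, a subunit gene of the GABA-B receptor. The WT group had 2 libraries from C57BL/6 mice, and the labels name no treatment. The labels do not give the allele, the deleted part, the sex or the litter. The protocol names 4 animals of each genotype, while the series design names 3 null and 2 WT. No label ties a library to 1 animal, and p-values therefore cover only the spread among these libraries, which may be technical in part. Counts of Xist and Y-linked genes, given below, set null library 1 apart in sex, so the null libraries were not all from the same animal.

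A heterotrimeric G protein consists of an alpha subunit that binds GDP or GTP and a tightly bound beta-gamma pair. An activated receptor makes alpha exchange GDP for GTP, after which alpha and beta-gamma act on separate targets. Alpha subunits of the Gi class inhibit adenylyl cyclase, and the beta-gamma pair released from them acts on phospholipase C beta, on phosphoinositide 3-kinase gamma and, in excitable cells, on potassium channels. The GABA-B receptor, a dimer of the products of Gabbr1 and Gabbr2, signals in this way, as do the homing receptors of marrow cells Cxcr4 and S1pr1.

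The coding ends of the alpha and gamma genes were compared at a cysteine site, which sets Gnaz apart from the other alpha genes. The C terminus of alpha is the part that docks to the receptor, and pertussis toxin uncouples most Gi/o proteins by modifying a cysteine there. In gamma, a cysteine near the C terminus receives the lipid that holds the beta-gamma pair at the membrane. The last 36 coding bases before the stop codon, 12 codons, are printed below 5′ to 3′ on the coding strand from GENCODE M21 transcripts (mm10). Capitals mark codon 4 counted back from the last codon.
Gnai1 (chr5:18267022-18267057, minus strand): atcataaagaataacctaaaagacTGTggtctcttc
Gnai2 (chr9:107615638-107615673, minus strand): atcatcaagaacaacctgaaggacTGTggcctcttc
Gnai3 (chr3:108109425-108109460, minus strand): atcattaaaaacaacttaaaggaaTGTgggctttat
Gnao1 (chr8:93967017-93967052, plus strand): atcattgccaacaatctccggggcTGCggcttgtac
Gnaz (chr10:75015174-75015209, plus strand): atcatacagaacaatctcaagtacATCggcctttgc
Gng2 (chr14:19875810-19875845, minus strand): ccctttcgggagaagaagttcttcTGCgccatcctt
Gng5 (chr3:146503347-146503382, plus strand): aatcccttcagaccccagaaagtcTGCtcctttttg
The marked codon encodes cysteine in Gnai1, Gnai2, Gnai3, Gnao1 and both gamma genes, and not in Gnaz, whose product is known to resist pertussis toxin. The coding sequences of the alpha genes were between 63.7% (Gnai3 and Gnaz) and 78.5% (Gnai1 and Gnai2) identical over their alignment, those of the beta genes between 75.6% and 77.0%, and Gng2 and Gng5 56.0%. No stretch of 50 bases, the length of 1 read, was shared between any 2 of the 10 genes, so reads could be told apart among them. Some stretches occurred in genes outside the set. These were 1.92% of the stretches of Gnai2, found in 400 other genes, and 0.093% of those of Gnb4, found in 435. They were also 1.71% of those of Gnao1 and 1.52% of those of Gnb2. Values for Gng2 and Gng5 are given below.

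Total counts were between 7530382 and 8150774 in the null libraries and were 7980630 and 6972753 in the WT libraries. The sort markers Kit and Ly6a (Sca-1) were read in every library. The 8 LSK and stem cell markers, led by Kit, summed to 2721 to 2975 CPM (counts-per-million) in null and to 3357 and 3521 CPM in WT. Of these markers 0 passed in edgeR at an adjusted p under 0.05, and 4 were lower at an unadjusted p under 0.05. Over all tested genes, 4.84% were lower and 7.99% higher at that unadjusted level. DESeq2 called Cd34 and Mecom lower. In edgeR, Mecom was called lower with total counts only, with no filter on low counts, with the robust fit and at an adjusted p under 0.1. Markers of other cell types were higher in null: all 10 B lineage markers passed, with Blnk the most abundant, and their summed level was 607 to 1056 CPM in null and 81.0 to 185 CPM in WT. Of the B lineage markers, 4 passed with the robust fit and 3 without WT library 2. Among 9 endothelial and stromal markers, 7 were higher, of which Sparc was the most abundant. Sums over the 9 were 119 to 201 CPM in null and 25.1 to 29.5 CPM in WT, with Lepr at 0 in both WT libraries. Col1a1, the most abundant of the 9, was not among the 7, with 43.3, 52.5 and 1.48 CPM in null libraries 1, 2 and 3 and 1.48 and 0.997 CPM in WT libraries 1 and 2 (edgeR adjusted p = 0.0523). Tek, also not among the 7, had 20.0, 21.4 and 17.5 CPM in null and 20.2 and 16.9 CPM in WT (edgeR adjusted p = 0.912). It made up most of the sum in both WT libraries. The 3 tested cartilage markers were higher, led by Col10a1, with sums of 19.7 to 146 CPM in null and 0.246 to 0.427 CPM in WT, where Col2a1 and Acan were at 0; Sox9 was at 0 throughout. Of the 3 cartilage calls, 0 were left with limma-voom, with the robust fit, without WT library 1 and without WT library 2. Mature neutrophil markers, led by S100a9 and Ngp, summed to 2194, 585 and 132 CPM in null libraries 1, 2 and 3 and to 143 and 106 CPM in WT libraries 1 and 2; 0 of 6 tested passed in edgeR and 6 were higher at an unadjusted p under 0.05, while 3 passed without null library 1 and 6 without null library 3. Erythroid markers summed to at most 15.2 CPM and Hba-a1 and Hba-a2 were at 0. Neuronal markers summed to at most 1.603 CPM and markers of T and NK cells to at most 4.13 CPM in any library. Null library 1 had 22532 counts of Xist and 0 of 4 Y-linked genes, whereas the other libraries had at most 21 and at least 1140. By these counts null library 1 was female and the other libraries were male. The genotypes were therefore not matched for sex, and the part of sex in the values was not tested. In bulk RNA, a change in the number of cells of a type and a change in RNA per cell cannot be told apart, and the part of these other cells in the values below was not tested.

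Gabbr1 had 289, 264 and 268 counts in null libraries 1, 2 and 3 and 402 and 403 in WT libraries 1 and 2. Its normalised level was 35.5 ± 2.78 CPM in null (SD, n = 3) and 53.4 ± 5.60 CPM in WT (SD, n = 2). The log2 fold change was -0.59 (SE 0.13, edgeR adjusted p = 0.0361). CPM of single genes and of lists are values after TMM scaling, and log2 fold changes are null over WT. The counts are sums over the gene and the deleted part is unknown, so the level that remained does not check the labels. Dropping either WT library, or library 2 or 3 of the null group, ended the Gabbr1 call. Gabbr2, the partner that couples the receptor to G proteins, had 3, 1 and 2 counts in the null libraries and 3 in each WT library, too few to be tested.

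No subunit gene of the set passed the test between genotypes. 8 of the 10 had enough counts for the test, and 0 were higher and 0 lower in null at an adjusted p under 0.05 (edgeR quasi-likelihood, Benjamini-Hochberg over 13467 genes). The count was also 0 in each direction at an unadjusted p under 0.05, where 7.99% of all tested genes were higher and 4.84% lower, and 0 with DESeq2 and limma-voom after adjustment. At an unadjusted p under 0.05, limma-voom, the robust edgeR fit and edgeR with no filter had 1 gene of the set higher, Gnai3. Without WT library 1 edgeR had 2 higher at that level, Gnai3 and Gng2, and without WT library 2 it had 1 lower, Gng2. Over all tested genes, 2.15% were called higher and 0.334% lower, 2.48% in all, so 0 of 8 is near the background. That background varied with which library was left out, and leaving out a WT library left only 1 in that group. It was 289 genes higher and 45 lower with all 5 libraries, 101 and 37 without WT library 1, and 32 and 0 without WT library 2, where 339 were lower at an unadjusted p under 0.05 in edgeR. It was 248 and 51 without null library 1, 314 and 42 without null library 2, and 316 and 15 without null library 3. Log2 fold changes of the 8 genes ranged from -0.21 to 0.28, with adjusted p between 0.407 and 0.996 in edgeR. In the edgeR fit of all 5 libraries, the 95% interval of the fold excluded a change of 1.5-fold in either direction for 7 of the 8 genes, and Gnaz, the least abundant, was the exception. This held for 6 in DESeq2 and for 6 in edgeR with total counts only, where the interval of Gng5 also reached past 1.5-fold. It held for only 4 without WT library 1, where those of Gnai3, Gng2 and Gng5 did so, for 4 without null library 1, for 5 without WT library 2 or null library 3, and for 6 without null library 2.

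**Figure D1:**
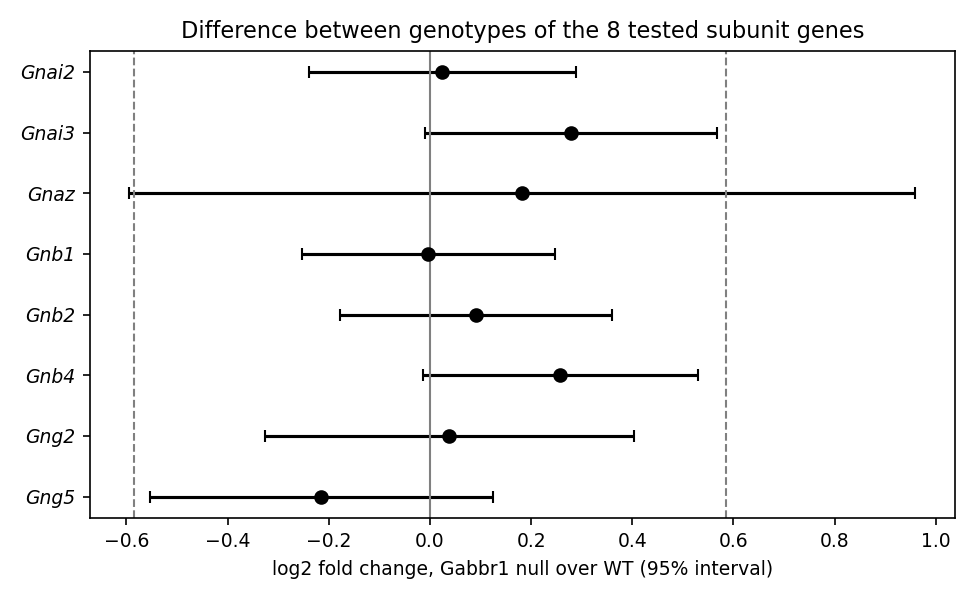
Log2 fold change of each tested subunit gene, Gabbr1 null (3 libraries) over WT (2 libraries), on the x axis, with its 95% interval from the edgeR fit as bars; dashed lines mark 1.5-fold. All 8 intervals include 0, and the interval of Gnaz, from -0.59 to 0.96, is the widest.

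Gnai2 had the most counts of the 5 Gi/o alpha genes. Gnai2, the Gi alpha gene best known from white blood cells (ENSMUSG00000032562.13, chr9:107614125-107635367, mm10), had 434, 423 and 454 CPM in null libraries 1, 2 and 3 and 398 and 462 CPM in WT libraries 1 and 2. All null values lay between the WT values. The means were 437 ± 15.7 CPM in null (SD, n = 3) and 429.7 ± 45.5 CPM in WT (SD, n = 2), and the fold of 1.02 had a 95% interval of 0.847 to 1.22. The log2 fold change was 0.024 ± 0.12 (SE, edgeR adjusted p = 0.966).

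Gnai3, a broadly expressed Gi alpha gene (ENSMUSG00000000001.4, chr3:108107280-108146146), had 106, 105 and 99.9 CPM in null libraries 1, 2 and 3 and 98.2 and 71.9 CPM in WT libraries 1 and 2. The groups did not overlap, as was so with null above WT for 15.5% of tested genes (29.2% in either direction), but WT library 1 was close to the null libraries and WT library 2 stood below them. The means were 103 ± 3.09 CPM in null (SD, n = 3) and 85.1 ± 18.6 CPM in WT (SD, n = 2). Gnai3 had the lowest p of the 8 genes and did not pass (log2 fold change 0.28 ± 0.13 SE, edgeR adjusted p = 0.407). Which WT library was kept set the value: 0.51 without WT library 1 (edgeR adjusted p = 0.0703) and 0.073 without WT library 2 (edgeR adjusted p = 0.889).

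The other alpha genes of the class were low or close to absent. Gnaz, the toxin-resistant member known from brain and platelets (ENSMUSG00000040009.6, chr10:74967177-75016907), had 4.53, 6.33 and 4.19 CPM in null libraries and 3.20 and 5.70 CPM in WT libraries. These groups overlapped, and the 95% interval of the fold ran from 0.662 to 1.94 (edgeR adjusted p = 0.897). The platelet gene Pf4, a marker of megakaryocytes, was higher in null (14.8 ± 3.86 CPM, SD, n = 3) than in WT (5.78 ± 0.525 CPM, SD, n = 2; edgeR adjusted p = 0.0192), a call lost with limma-voom and when either WT library or null library 3 was left out. Of the other markers on that list, Gp9 had 5.06 ± 0.703 CPM in null and 7.86 ± 1.24 CPM in WT (edgeR adjusted p = 0.354), Gp1ba 4.33 ± 0.722 CPM in null and 3.88 ± 0.960 CPM in WT (edgeR adjusted p = 0.905), and Gp6 was at 0 in all 5 libraries. Ppbp had 5, 5 and 9 counts in null libraries 1, 2 and 3 and 2 and 3 counts in WT libraries 1 and 2, too few to be tested. Gnai1 (ENSMUSG00000057614.6, chr5:18265135-18360355), abundant in brain, had 4, 1 and 3 counts in null and 1 and 3 counts in WT. Gnao1, the Go alpha gene of neurons (ENSMUSG00000031748.16, chr8:93809966-93969388), had 0, 2 and 4 counts in null and 1 and 0 counts in WT. A count of 0 allows up to 3 counts, or 0.400 CPM in null library 1 and 0.427 CPM in WT library 2. Neither gene could be tested at this depth, and a difference between genotypes was not detectable.

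**Figure D2:**
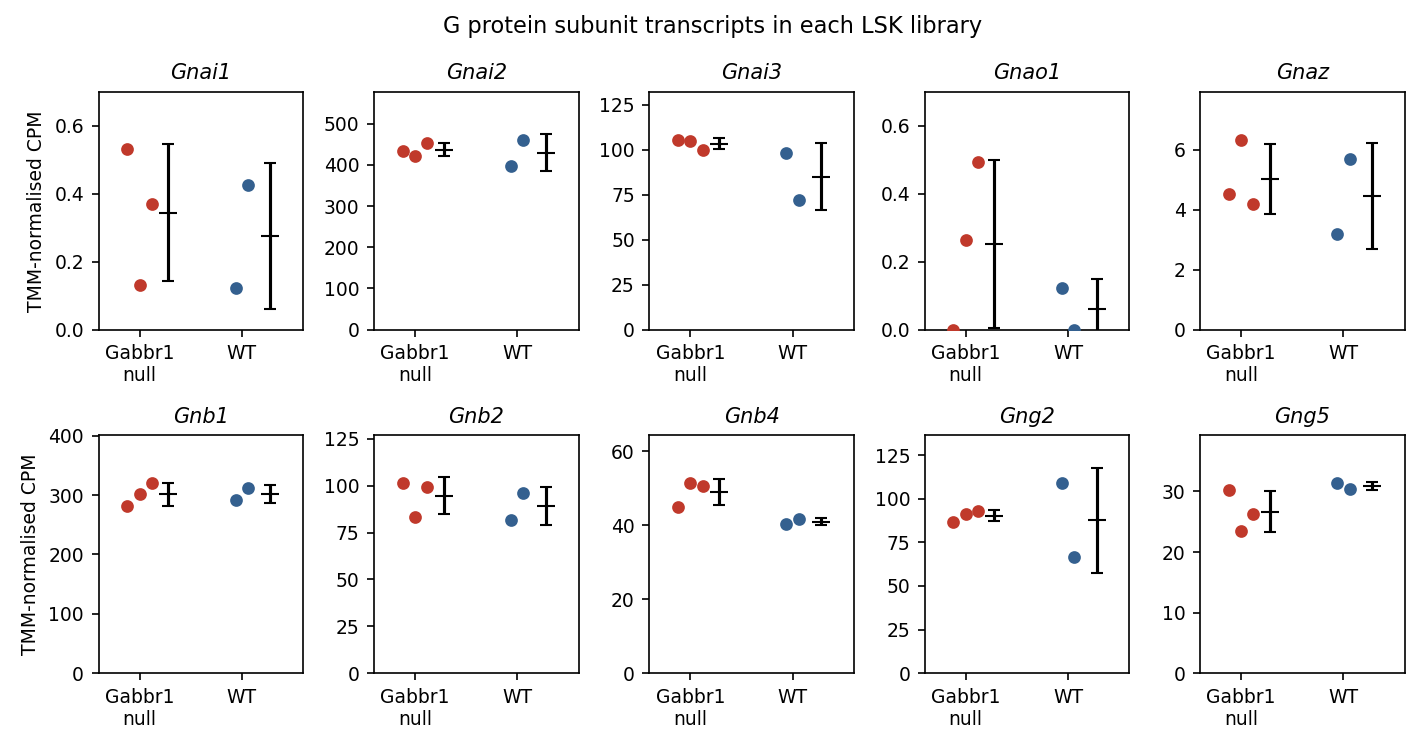
TMM-normalised CPM (y axis, linear from 0, own scale per gene) of the 10 subunit genes in each library, with Gabbr1 null (3 red points) left of WT (2 blue points); the black dash and bars are the mean and SD. Gnai3 and Gnb4 have all null points above the WT points and Gng5 all below, while the WT points of Gng2, at 109 and 66.5 CPM, lie on both sides of the null points. Groups did not overlap in either direction for 29.2% of all tested genes.

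Of the beta genes, Gnb1 had the most counts. Gnb1, the most widely expressed G beta gene (ENSMUSG00000029064.15, chr4:155491361-155559269), had 281, 302 and 320.2 CPM in null libraries 1, 2 and 3 and 291 and 312 CPM in WT libraries 1 and 2. The groups overlapped throughout, with means of 301 ± 19.5 CPM in null (SD, n = 3) and 302 ± 14.8 CPM in WT (SD, n = 2). The 95% interval of its fold was 0.839 to 1.19 (edgeR adjusted p = 0.996).

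Gnb2, a second widely expressed beta gene (ENSMUSG00000029713.15, chr5:137528127-137533510), had 101, 83.5 and 99.1 CPM in null and 81.8 and 96.1 CPM in WT. Its groups overlapped too, and its log2 fold change was 0.091 ± 0.12 (SE, edgeR adjusted p = 0.837). Exons of Epo overlap 104 bases of Gnb2 exons on the same strand, and Epo had 0 counts in every library.

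Gnb4 (ENSMUSG00000027669.14, chr3:32580332-32616585), another beta gene, had 45.0, 51.5 and 50.7 CPM in null libraries 1, 2 and 3 and 40.4 and 41.7 CPM in WT libraries 1 and 2. Every null library was above both WT libraries, as in 15.5% of tested genes. The means were 49.1 ± 3.51 CPM in null (SD, n = 3) and 41.0 ± 0.960 CPM in WT (SD, n = 2), and the test was not passed (log2 fold change 0.26 ± 0.12 SE, 95% interval -0.014 to 0.53, edgeR adjusted p = 0.418). For Gnb4 the log2 fold change stayed between 0.22 and 0.32 when any 1 library was left out.

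The gamma genes differed in where the WT libraries lay. Gng2 (ENSMUSG00000043004.13, chr14:19872559-19977627), a common partner of Gnb1, had 86.9, 91.3 and 92.8 CPM in null libraries 1, 2 and 3 and 109 and 66.5 CPM in WT libraries 1 and 2. The null libraries were close together and lay between the WT libraries, which differed by 0.71 on the log2 scale. The log2 fold change was 0.039 ± 0.17 (SE, edgeR adjusted p = 0.960), and it was 0.43 without WT library 1 and -0.27 without WT library 2 (edgeR adjusted p = 0.11 and 0.503). Exons of the opposite-strand gene Gm48283 overlap 897 bases of Gng2 exons. The sources used here do not say whether counting used strand, so reads from both genes could not be told apart there. Gm48283 and the pseudogene Gng2-ps1 share 18.9% of the 50-base stretches of Gng2. Gm48283 was not found by name among the counted genes, while Gng2-ps1 had 0 counts in every library.

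Gng5 (ENSMUSG00000068523.12, chr3:146499807-146505572), a gamma gene of most tissues, had 30.2, 23.5 and 26.3 CPM in null and 31.4 and 30.5 CPM in WT. Every null library was below both WT libraries, as in 13.7% of tested genes. The means were 26.7 ± 3.40 CPM in null (SD, n = 3) and 30.9 ± 0.643 CPM in WT (SD, n = 2), and the test was not passed (log2 fold change -0.21 ± 0.16 SE, edgeR adjusted p = 0.636). Of the 50-base stretches of Gng5, 5.94% also occur in 6 other genes, among them the pseudogene Gng5-ps, which had 2 to 6 counts in null libraries and 8 and 2 counts in WT libraries. Another of the 6, Gm3150, had 22, 28 and 20 counts in null libraries 1, 2 and 3 and 30 and 18 counts in WT libraries 1 and 2, where Gng5 had 227, 178 and 213 counts in null and 255 and 214 counts in WT.

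Levels of different genes were compared per kilobase of exon. In that unit Gnai2 led with 116 ± 4.16 CPM per kb in null (SD, n = 3) and 114 ± 12.03 CPM per kb in WT (SD, n = 2), above 97.7% of tested genes. Gnb1 came next with 70.5 ± 4.58 and 70.7 ± 3.47 CPM per kb in null and in WT. Gnai3 followed with 31.7 ± 0.948 CPM per kb in null and 26.1 ± 5.70 in WT, then Gnb2 with 27.8 ± 2.86 in null and 26.2 ± 2.97 in WT, and Gng2 with 20.6 ± 0.706 in null and 20.0 ± 6.85 in WT. The library ranges of Gnai3 and Gnb2 overlapped, as did those of Gnb2 and Gng2, so the order among these neighbours was not settled. Gng5 (9.64 ± 1.23 CPM per kb in null and 11.2 ± 0.232 in WT), Gnb4 (3.87 ± 0.276 in null and 3.23 ± 0.0756 in WT) and Gnaz (1.39 ± 0.319 in null and 1.23 ± 0.489 in WT) followed without overlap. Gnai1 and Gnao1 came last and overlapped. The order depended on the length used. Per kilobase of coding sequence, which is 213 bases in Gng2, Gng2 came first and Gnai2 was second.

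**Figure D3:**
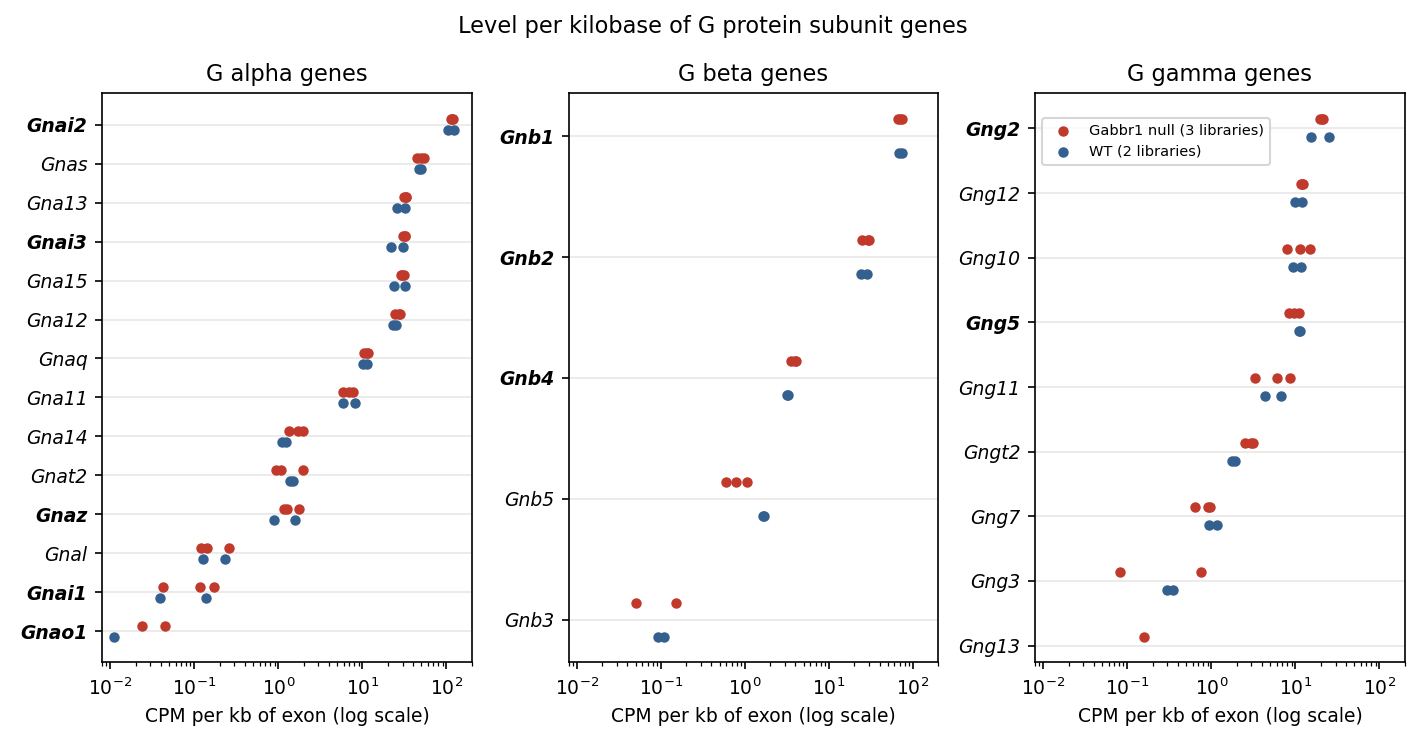
Level of every G alpha, beta and gamma gene with a count, as CPM per kilobase of exon on a log x axis, 1 point per library (red Gabbr1 null above, blue WT below); the 10 genes of the set are in bold and values of 0 are not drawn. Gnai2, Gnb1 and Gng2 stand highest in their classes in both genotypes.

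Gnai2, Gnb1 and Gng2 made up most of their class of the set in every library. Gnai2 made up 77.3%, 76.7% and 79.0% of the summed per-kilobase level of the 5 alpha genes in null libraries 1, 2 and 3 and 77.2% and 83.7% in WT libraries 1 and 2. Gnai3 made up 21.3 ± 1.02% in null (SD, n = 3) and 18.6 ± 4.95% in WT (SD, n = 2), and Gnaz, Gnai1 and Gnao1 together the small remainder. Among the beta genes, Gnb1 held 69.0 ± 2.42% in null and 70.7 ± 1.13% in WT, Gnb2 27.2 ± 2.66% in null and 26.1 ± 1.27% in WT, and Gnb4 3.78 ± 0.267% in null and 3.24 ± 0.135% in WT (SD, n = 3 and 2). The share of Gnb4 was 3.58%, 4.09% and 3.69% in null libraries and 3.33% and 3.14% in WT libraries, without overlap, and this difference was not tested. Between the 2 gamma genes, Gng2 held 68.1 ± 3.39% in null and 63.3 ± 7.60% in WT.

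Set beside the 23 other subunit genes of the family, the 5 Gi/o alpha genes held 48.3 ± 0.494% of the per-kilobase level of all 16 alpha genes in null (SD, n = 3) and 48.4 ± 0.905% in WT (SD, n = 2). Gnai2 alone held 37.5 ± 0.942% in null and 39.0 ± 2.96% in WT. Gnas, the stimulatory alpha gene that acts opposite to Gi on adenylyl cyclase, held 15.9 ± 1.39% in null and 16.8 ± 0.993% in WT. Per kilobase, Gnai2 was 2.36 ± 0.159 times as high as Gnas in null and 2.34 ± 0.315 times in WT. These values rested on the length used for Gnas: by the longest transcript, Gnas held 28.6 ± 1.95% in null and 29.6 ± 1.82% in WT, and the ratio was 1.42 ± 0.0960 in null and 1.41 ± 0.190 in WT. In CPM without division by length, Gnas (549 in null and 546 in WT) stood above Gnai2 (437 in null and 429.7 in WT). Gna13, Gna15 and Gna12, of the G12/13 and Gq classes, each held between 8.24% and 10.6% on average in either genotype. Gnb1, Gnb2 and Gnb4 together made up 99.1 ± 0.220% of the beta level in null and 98.3 ± 0.0799% in WT. In contrast, Gng2 and Gng5 made up only 47.4 ± 0.889% of the gamma level in null and 50.7 ± 2.15% in WT, with Gng12 and Gng10 holding most of the remainder.

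Of these 23 other subunit genes, 15 were tested, and no adjusted p passed with edgeR, DESeq2 or limma-voom (0 genes). At an unadjusted p under 0.05 edgeR had 1 gene lower, where 4.84% of all tested genes were lower. That gene was Gnb5, a beta subunit that pairs with RGS proteins of the R7 group, with 3.33, 1.85 and 2.47 CPM in null libraries 1, 2 and 3 and 5.17 and 5.27 CPM in WT libraries 1 and 2. Gnb5 did not pass after adjustment (log2 fold change -1.03 ± 0.37 SE, edgeR adjusted p = 0.228). Gnas had 549 ± 54.9 CPM in null (SD, n = 3) and 546 ± 15.97 CPM in WT (SD, n = 2), and Gna13 had 209.8 ± 6.99 CPM in null and 187 ± 29.3 CPM in WT. Gnat1, Gnat3, Gng4, Gng8 and Gngt1, mainly known from sensory cells and neurons, had no count in any library. The median log2 fold change was 0.11 over the 15 tested genes, 0.065 over the 8 tested genes of the set, and -0.0045 over all tested genes.

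Among the receptors upstream of these subunits, Gabbr1 was the 1 gene called. Of 13 receptors that couple to Gi or Go, 6 were tested, 0 were higher and 1, Gabbr1 itself, was lower; DESeq2 and limma-voom gave the same counts. At an unadjusted p under 0.05, edgeR had 2 higher and 2 lower, where 7.99% of all tested genes were higher and 4.84% lower. Of the 6, 3 had all null values above and 2 all below the WT values, against 29.2% of tested genes in either direction. Cxcr4, the receptor for the niche chemokine Cxcl12, had 194, 197 and 177 CPM in null libraries 1, 2 and 3 and 115 and 159.9 CPM in WT libraries 1 and 2. All null values were above both WT values, as in 15.5% of tested genes, and the test was not passed (log2 fold change 0.46 ± 0.14 SE, edgeR adjusted p = 0.13). With no filter on low counts, Cxcr4 and S1pr1 passed as higher and P2ry14 and Gabbr1 as lower. Without any 1 of WT libraries 1 and 2 and null libraries 2 and 3, there were 0 receptors called by edgeR, and at an unadjusted p under 0.05 it had 1 to 3 higher and 1 or 2 lower. Chrm2 and Drd2 had no count.

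Genes that assemble, modify or switch off the subunits showed no call. All 7 receptor kinase and arrestin genes were tested, of which 0 passed with edgeR, DESeq2 or limma-voom, and 0 at an unadjusted p under 0.05. Grk2, the kinase that beta-gamma recruits to active receptors, had 460.4 ± 34.7 CPM in null (SD, n = 3) and 417 ± 70.3 CPM in WT (SD, n = 2). Arrb1 had 246 ± 18.3 CPM in null and 281 ± 43.4 CPM in WT, and Grk3, with the lowest p of its list, 79.2 ± 16.5 CPM in null and 93.0 ± 2.00 CPM in WT. Of 8 tested chaperone and modulator genes 0 passed in the 3 tools. At an unadjusted p under 0.05 edgeR had 2 lower and 0 higher, where 4.84% of all tested genes were lower. Ric8a, the chaperone of Gi and Gq alpha, had 96.4 ± 10.7 CPM in null and 106 ± 5.74 CPM in WT, and Pdcl, a helper of beta-gamma assembly, 53.4 ± 2.99 CPM in null and 48.4 ± 8.08 CPM in WT. Gpsm1, which binds GDP-bound Gi alpha, had 28.6, 31.8 and 32.7 CPM in null and 37.2 and 42.6 CPM in WT (edgeR adjusted p = 0.287). Of 8 genes for lipid attachment to the subunits, 0 passed in the 3 tools and 0 at an unadjusted p under 0.05, and the most abundant, Zdhhc3, had 129.9 ± 2.22 CPM in null and 143 ± 0.776 CPM in WT. Nmt1, which myristoylates Gi alpha, had 103 ± 7.55 CPM in null and 99.0 ± 0.203 CPM in WT.

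Targets of the subunits were likewise without a call. Of 7 tested effectors of beta-gamma, 0 passed with edgeR, DESeq2 or limma-voom. At an unadjusted p under 0.05 there was 1 higher and 1 lower, where edgeR had 7.99% of all tested genes higher and 4.84% lower. Pik3r6, a regulatory subunit through which beta-gamma drives phosphoinositide 3-kinase gamma, had 14.4, 9.63 and 11.3 CPM in null libraries 1, 2 and 3 and 5.17 and 6.41 CPM in WT libraries 1 and 2. All null values were above the WT values, as in 15.5% of tested genes. Pik3r6 missed the threshold (log2 fold change 1.03 ± 0.26 SE, edgeR adjusted p = 0.068), which it passed with the robust fit, with no filter on low counts and without null library 2. Plcb2, the phospholipase C of blood cells that beta-gamma activates, had 347 ± 27.1 CPM in null (SD, n = 3) and 421 ± 49.6 CPM in WT (SD, n = 2; edgeR adjusted p = 0.382). The catalytic subunit gene Pik3cg had 280.3 ± 23.6 CPM in null and 277 ± 3.92 CPM in WT. The potassium channel genes Kcnj3, Kcnj6 and Kcnj9, targets of Gi in neurons, had no count in any library, and Kcnj5 had 12, 2 and 4 counts in null libraries 1, 2 and 3 and 0 and 1 counts in WT libraries 1 and 2, too few to be tested. Of 5 tested adenylyl cyclase genes, 0 passed in the 3 tools. At an unadjusted p under 0.05 edgeR had 2 lower and 0 higher, where 4.84% of all tested genes were lower. DESeq2 had 0 in either direction at that level. Of the 5 log2 fold changes, 4 were negative and 1 was positive, with a median of -0.25, against -0.0045 over all tested genes. Adcy7 had 206 ± 12.4 CPM in null and 215 ± 16.9 CPM in WT, and Adcy6 40.5 ± 1.89 CPM in null and 51.2 ± 9.76 CPM in WT.

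**Figure D4:**
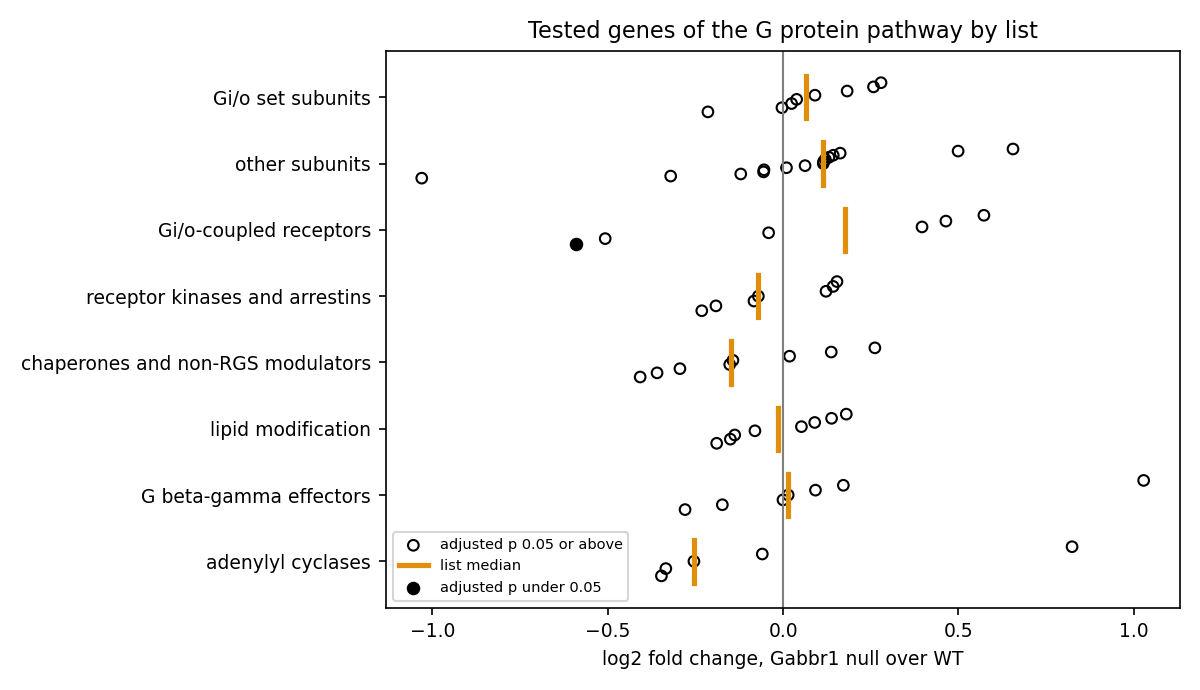
Log2 fold change, Gabbr1 null over WT, of each tested gene (x axis) in the subunit set and in 7 lists of the pathway (rows); open points did not pass, the filled point passed at an adjusted p under 0.05 in edgeR, and orange bars are list medians. The filled point is Gabbr1, and the subunit set lies between -0.21 and 0.28.

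The genes whose pattern over the 5 libraries was most like that of Gnai2 were Plcg1, Tdp1 and Cmtm6, at Euclidean distances of 0.0296, 0.0345 and 0.0350 between log2 CPM values centred on their mean. For Gnai3, the member with the lowest p, they were Actr2, Ccdc15 and Sacm1l, at 0.0377, 0.0457 and 0.0468. These distances over 5 libraries are a description of how the values lie.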

How the data were processed

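RNA of 5 LSK libraries was sequenced after a targeted depletion step, as 2 reads of 50 bp per fragment, per the labels' protocols; the molecule field names polyA RNA. STAR, featureCounts and mm10 were used, per the submitters' processing notes; their versions, strand setting and treatment of shared reads are not stated there. The authors deposited raw counts per gene, without normalization. Of 39056 identifiers, 99.5% matched GENCODE M21, which gave symbols, coordinates and union exon lengths. Every row named a gene.

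Genes passing filterByExpr by group (13467) were scaled by TMM and tested with genotype as the only term by edgeR 4.0.16 (quasi-likelihood F test, R 4.3.3). The threshold was a Benjamini-Hochberg adjusted p of 0.05, and standard errors and 95% intervals came from the F statistic. DESeq2 1.42.0, limma-voom (limma 3.58.1), other scalings and filters, a robust fit and each library left out were alternatives. The code was tested on simulated counts. Replicates differed beyond sampling noise (chi-square per degree of freedom 7.61 to 11.98). About 7 to 8 counts made 1 CPM, and floors cover counting error only.

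Levels per kilobase are TMM-normalised CPM over union exon length. Members and lists were chosen with earlier results of these data known. Genes were named as follows: all members, Gabbr1, list genes past the threshold, the 2 most abundant genes and the lowest p of each list, and the 3 genes nearest to Gnai2 and to the member with the lowest p (mean CPM of at least 10, log2 CPM with a prior count of 2). Marker genes, Kcnj5, Gm3150, S1pr1, P2ry14, Gng10, Gng12, Gna12, Gna15 and genes at 0 were named after their values were seen. A planned comparison of protein sequences was not made, and coding sequences were compared instead.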

Additional observations from a re-analysis of the deposited data

How the results depend on the processing

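No subunit gene of the set passed at an adjusted p under 0.05 in edgeR under the scalings, filters, robust fit and left-out libraries tried, nor in DESeq2 or limma-voom, each run once on all 5 libraries. At an adjusted p under 0.1, tried on the edgeR fit of all 5 libraries, none passed either; without WT library 1, Gnai3 had an adjusted p of 0.0703 in edgeR. Log2 fold changes kept their direction except with total counts only, where Gnai2 was -0.010, and in fits without 1 library, over which Gnai2 ranged from -0.092 to 0.14, Gnaz from -0.20 to 0.64, Gnb1 from -0.064 to 0.047, Gnb2 from -0.033 to 0.21 and Gng2 from -0.27 to 0.43. Over all genes, 602 were higher and 155 lower with no filter, 173 higher with a CPM of at least 1 in every library, and 81 lower at an adjusted p under 0.1. Leaving out a library gave 32 to 316 higher and 0 to 51 lower. Where 1 WT library was left, it was assumed to vary like the null ones. Per kilobase of the longest transcript, Gnai2 made up 85.6% of the alpha set in null and 87.5% in WT, and Gnb1 61.8% of the beta set in null and 63.8% in WT. Per kilobase of coding sequence, Gnai2 made up 80.0% in null, and Gng2 76.5% of the gamma pair in null and 72.3% in WT. Shares change with length because a level per kilobase is a count divided by it. No paired analysis was possible because the labels give no pairing between null and WT libraries. The intervals against 1.5-fold under each fit, and the lengths used for Gnas, were chosen as alternatives after seeing the data. Counts of at most 4 per library limit Gnai1 and Gnao1.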
